A study of Gallus gallus with 10 samples.

Results

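The egg white protease inhibitor genes described here were SPINK7 (ovomucoid), SPINK5 (ovoinhibitor), CST3 (cystatin), OVST (ovostatin) and SERPINB6, 5 genes picked by symbol from the 29558 genes of a count table of the hen's magnum. The magnum is the oviduct segment that lays egg white around the yolk, and the birds were broiler breeder hens (Gallus gallus), the parent stock of meat chickens. The groups were 5 hens at 35 weeks of age (peak lay, labelled young) and 5 at 50 weeks (declining lay, labelled aged), with no treatment named, and whole tissue was sampled while an egg was in the magnum. Each library is a separate hen by its bird number, and the series asked which magnum transcripts change as lay declines. The sample titles also name the shell gland, a later oviduct segment. OVAL, the gene of the main egg white protein ovalbumin, had 3972 to 7293 counts per library, 5 of 9 shell gland markers had none in any library, CALB1 and SPP1 among them, and the other 4, such as CA2, had at most 8 in a library.

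Egg white holds inhibitors of several protease classes, which are thought to keep its proteins intact and to hold back microbial and digestive proteases. Ovomucoid and ovoinhibitor are built from repeated Kazal domains, small folds that plug the active site of serine proteases such as trypsin. Cystatin blocks cysteine proteases of the papain and cathepsin type, and ovostatin, a relative of alpha-2-macroglobulin, traps proteases of several classes in a cage. SERPINB6 belongs to the same serpin clade as ovalbumin, and in mammals it is an intracellular inhibitor of serine proteases. Ovomucoid is among the most abundant egg white proteins and is made in the tubular gland cells under steroid hormone control.

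The library totals were low, between 188271 and 258195 counts with a median of 220938. Levels are given in CPM, the count relative to the library's total, with the total adjusted by its TMM factor for single genes but not for sums over marker lists. A gene with no count in a library could still have stood at 11.6 to 15.9 CPM there (3 counts), for counting error only. GAPDH, which most cells express strongly, had 1 to 7 counts per library, and no source used here states the strand setting. Levels of single genes, and ratios between them, may therefore be incomplete or include RNA of a neighbouring gene. RABEPK averaged 10940 and 6444 CPM at 35 and 50 weeks. The chaperone gene HSPA5, which it overlaps or adjoins within 1 kb, averaged 285.6 and 246.6 CPM. The reason for this contrast was not tested. In overall profile, for which no measure is given here, 3 libraries were taken to stand apart. They were replicates 1 and 2 of the younger hens and replicate 4 of the older. The 10 fibroblast markers summed to 456.8, 549.3 and 902.4 CPM in them, against 36.6 to 265.9 CPM in the other 7 libraries. Most of that sum was COL6A2 (1 to 226 counts), while the defining collagens COL1A1, COL1A2 and COL3A1 had at most 4 counts in any library. Values with these 3 left out stand beside the results below, a choice made after seeing the data, and the part of this marker difference in the results was not tested.

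SPINK7 encodes ovomucoid, a trypsin inhibitor and a main egg allergen. It lies on chromosome 13 at 10179106 to 10184657 (GRCg7b) and held 77.2% ± 4.76 (SD, n = 5) of the 5 genes' counts at 35 weeks and 66.6% ± 6.43 at 50 weeks. Its levels at 35 weeks were 7636, 7690, 5238, 4868 and 5031 CPM in replicates 1 to 5, from 942 to 1759 counts. At 50 weeks they were 4806, 2605, 3750, 3232 and 3338 CPM, from 580 to 981 counts. The groups did not overlap, and all the younger hens had more SPINK7 than any older hen, with replicates 1 and 2 at 35 weeks highest and replicate 2 at 50 weeks lowest. The gap between the groups was 61.6 CPM, less than the counting error of the hens on either side of it. On library totals without TMM scaling the same hens, replicate 4 at 35 weeks and replicate 1 at 50 weeks, were at 4781.5 and 4781.4 CPM.

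The mean level of SPINK7 was 6093 ± 1440 CPM (SD, n = 5) in the younger hens and 3546 ± 815 CPM in the older ones. The older hens were thus at 0.582-fold, or −0.78 in log2 units (SE 0.19, 95% interval −1.19 to −0.37). SPINK7 ranked 11 by p among 1773 tested genes in edgeR's quasi-likelihood test, but did not pass after Benjamini-Hochberg adjustment (adjusted p = 0.175). None of the 4 members that could be tested passed an adjusted p under 0.05, where 0.0564% of all tested genes did. SPINK7 was the 1 member of 4 with an unadjusted p under 0.05 and the 1 whose groups did not overlap, against 10.5% and 1.64% of tested genes (6.03% and 1.13% in the lower direction). DESeq2 called it (adjusted p = 0.0251, with 0.734% of genes called lower). EdgeR also called it with no filter on low counts (adjusted p = 0.00102, 0.146%) and with a looser filter (adjusted p = 3.17e-04, 0.316%). Limma with sample weights, which called 0.677% of genes, did not call it (adjusted p = 0.0721). In these 2 edgeR fits the log2 fold change of SPINK7 was no larger (−0.75 in both). Its SE fell from 0.19 to 0.15, while the SE of SPINK5, CST3 and OVST rose. Its unadjusted p in edgeR's test fell from 0.00112 to 6.46e-07 with no filter and 3.54e-07 with the looser filter. At these SEs, p this small needs far more degrees of freedom than the main fit used. These 2 calls thus rest on a lower error estimate and on more degrees of freedom, in fits that include sparser genes. The share for DESeq2 is of all genes with a p, including OVST, to which it gave no adjusted p. The deposited table of the authors' own comparison listed 203 genes, all with a log2 fold change of at least 0.957 in size, and none of the 5 inhibitor genes.

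The size of the SPINK7 difference depended on the libraries that stood apart. Without them the remaining 3 hens at 35 weeks averaged 5046 ± 186 CPM and the remaining 4 at 50 weeks 3625 ± 919 CPM. The log2 fold change was then −0.47 (SE 0.18), and SPINK7 was not among the 2.3% of genes that edgeR called in those libraries (adjusted p = 0.231). Summed over 10 gland cell secretion genes that hold no inhibitor, OVAL and TF among them, levels ran from 36290 to 47980 CPM at 35 weeks and from 25080 to 36410 CPM at 50 weeks. Most of that sum was OVAL (3972 to 7293 counts). In bulk tissue, fewer gland cells and less RNA per gland cell cannot be told apart.

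**Figure D1:**
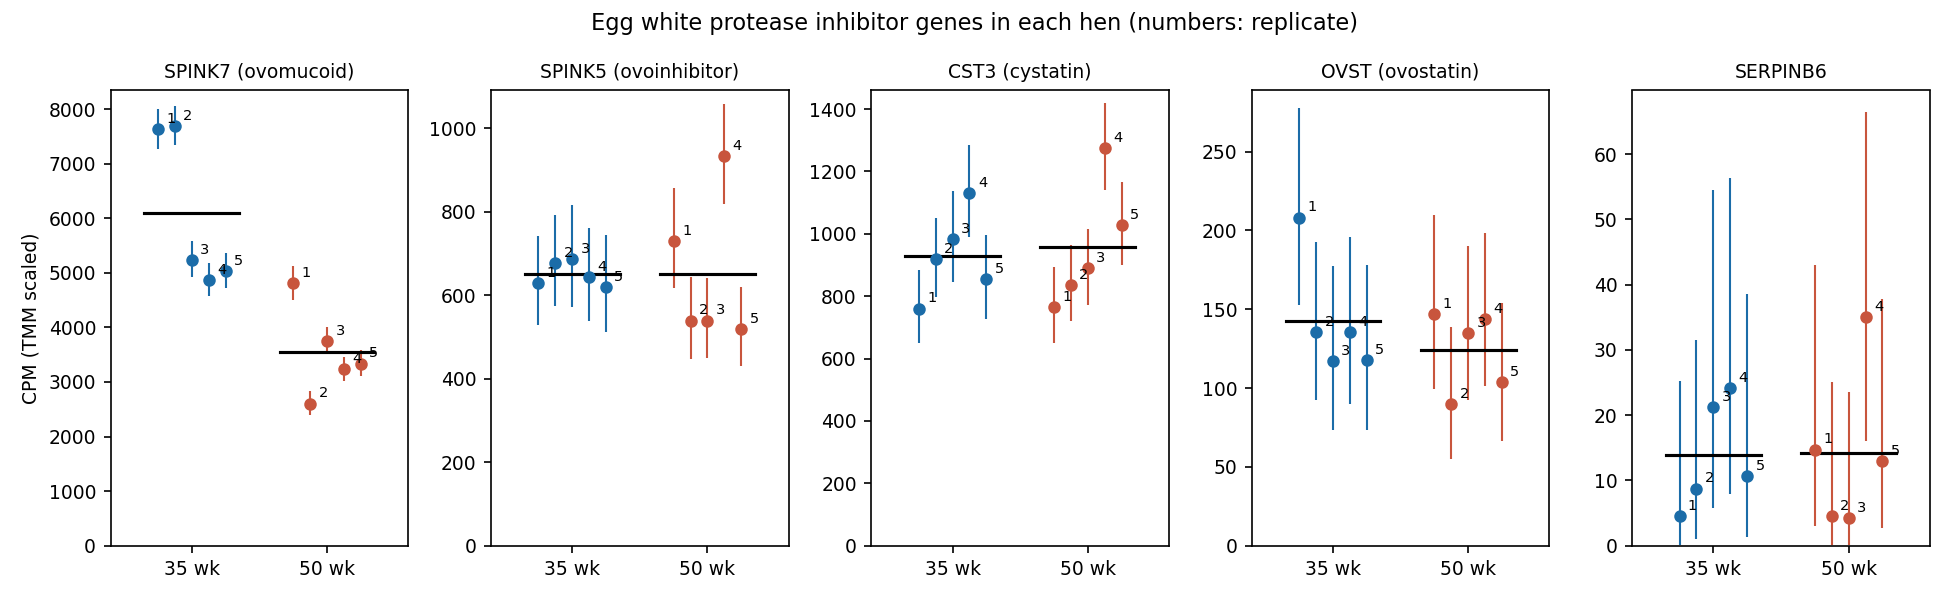
Level of each inhibitor gene in every hen, in CPM scaled by TMM factors, with 35 weeks in blue and 50 weeks in red. Points are single hens numbered by replicate, vertical bars are 95% Poisson intervals of the count, and black lines are group means. The SPINK7 means were 6093 and 3546 CPM with no overlap, whereas the groups of the other 4 genes overlapped or interleaved.

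SPINK5 encodes ovoinhibitor, a Kazal inhibitor of trypsin, chymotrypsin and elastase. It is the neighbour of SPINK7, on chromosome 13 at 10159597 to 10169565, and 9540 bp lie between them in the RefSeq gene table. Its levels at 35 weeks were 628.8, 677.7, 686.0, 642.9 and 619.5 CPM in replicates 1 to 5. At 50 weeks they were 730.0, 539.0, 539.3, 933.3 and 518.1 CPM. None of the hens at 50 weeks lay inside the narrow range at 35 weeks: 3 lay below it and 2 above, replicate 4 farthest. The coefficient of variation was 4.53% at 35 weeks and 27.5% at 50 weeks, where counting alone gives about 8.37% at the mean count, so the hens at 35 weeks varied less than counting error.

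The means of SPINK5 were 651.0 ± 29.5 CPM (SD, n = 5) and 651.9 ± 179 CPM. The log2 fold change was 0.0028 (SE 0.17, 95% interval −0.37 to 0.37), which leaves room for 0.774-fold to 1.30-fold (adjusted p = 0.998, edgeR). Without replicate 4 the mean at 50 weeks was 581.6 ± 99.4 CPM (n = 4) and the log2 fold change −0.15, and with all 3 divergent libraries left out it was also −0.15 (SE 0.17, adjusted p = 0.75 in edgeR's test). The sign of this near-zero value turned in 7 of 19 other settings.

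CST3 encodes cystatin, the egg white protein from which the cystatin family took its name. It lies on chromosome 3 at 15278759 to 15281084, and the microRNA gene MIR3526 lies within it in the RefSeq table. Its levels were 760.0, 918.1, 983.8, 1131 and 854.5 CPM at 35 weeks and 764.3, 835.4, 889.0, 1276 and 1028 CPM at 50 weeks, in replicates 1 to 5. The groups overlapped, with 4 of 5 hens at 50 weeks inside the range of 35 weeks and replicate 4 above it. The means were 929.5 ± 140 and 958.4 ± 202 CPM (SD, n = 5). The log2 fold change was 0.05 (SE 0.17, 95% interval −0.31 to 0.40, adjusted p = 0.956 in edgeR's test), and −0.16 without the 3 libraries that stood apart.

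OVST encodes ovostatin and lies on chromosome 1 at 76281536 to 76316814, between its paralogs A2ML3 and OVSTL in the RefSeq table. Neither paralog was found by name in the count table, so reads shared with them cannot be checked. The levels were 208.1, 135.5, 117.0, 135.3 and 117.5 CPM at 35 weeks and 147.0, 89.8, 134.8, 143.9 and 103.6 CPM at 50 weeks, from 20 to 46 counts a library. At this depth counting alone gives a coefficient of variation of about 18.5%, against 26.4% and 20.7% measured at 35 and 50 weeks. Replicate 1 at 35 weeks stood above all others, 2 hens at 50 weeks lay below the lowest at 35 weeks and 3 lay within its range.

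The means of OVST were 142.7 ± 37.7 and 123.8 ± 25.6 CPM (SD, n = 5), or −0.21 in log2 units (SE 0.23, 95% interval −0.71 to 0.29, adjusted p = 0.816 in edgeR's test). Without replicate 1 at 35 weeks it was −0.02, and without the 3 libraries that stood apart −0.05. The SPINK7 estimate of −0.78 lies just outside the OVST interval, but its own interval (−1.19 to −0.37) overlaps that of OVST.

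SERPINB6 lies on chromosome 2 at 67373147 to 67382646 and overlaps SERPINB10A in the RefSeq table, so its few counts are uncertain. It had 1, 2, 4, 5 and 2 counts at 35 weeks and 3, 1, 1, 9 and 3 counts at 50 weeks in replicates 1 to 5. The groups overlapped, and replicate 4 at 50 weeks was highest. With 31 counts in all it did not pass the filter on low counts, and its means were 13.9 ± 8.44 and 14.3 ± 12.5 CPM (SD, n = 5), around the limit that a count of 0 allows. In the fit without that filter the log2 fold change was 0.11 (SE 0.63, adjusted p = 0.971 in edgeR's test), so no difference was detectable at this depth. The log2 ratio of its means was 0.04 with all hens and −1.03 without the 3 libraries.

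Replicate 4 at 50 weeks, the hen with the highest fibroblast marker sum, also had the highest CPM of SPINK5, CST3 and SERPINB6 among all 10 hens. The 4 tested members had a median log2 fold change of −0.10, against 0.0060 over all 1773 tested genes, and 2 of the 4 were negative. Their median carries little, since it is the midpoint of OVST (−0.21) and SPINK5 (0.0028). The size of the SPINK7 change does not enter it.

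**Figure D2:**
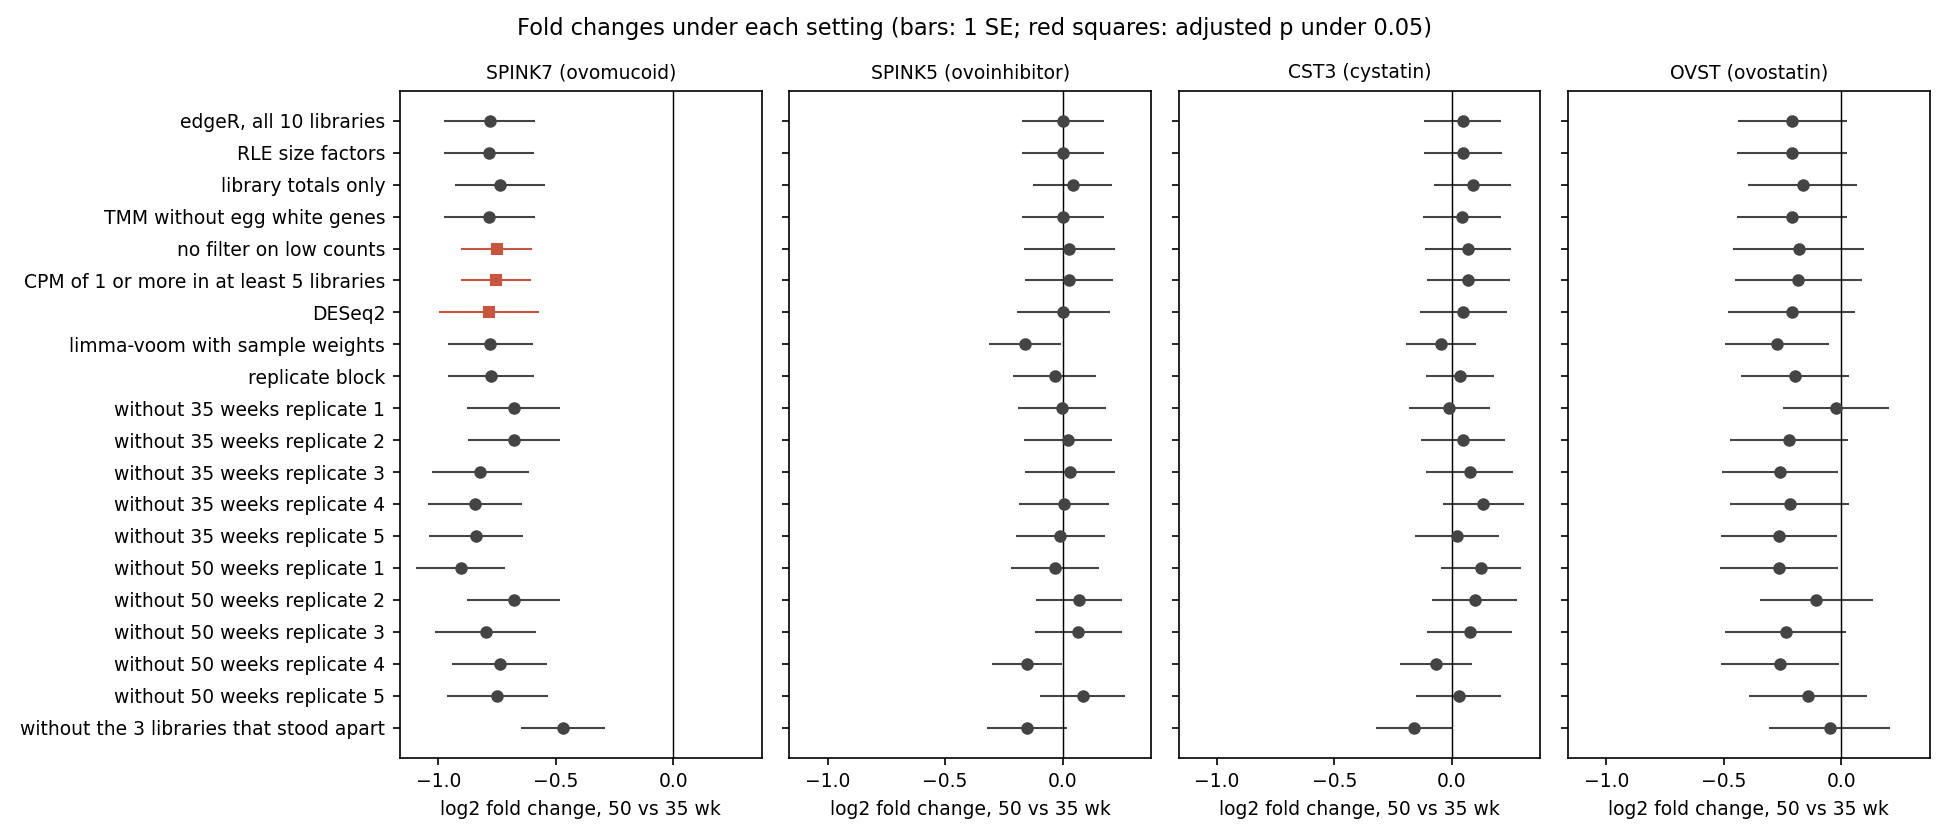
Log2 fold change of each tested inhibitor gene, 50 against 35 weeks, under each setting, with bars of 1 SE. Red squares mark an adjusted p under 0.05. SPINK7 stays below 0 in all settings shown, from −0.90 to −0.47, and passes in 3 of them, while SPINK5 and CST3 lie on either side of 0.

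Whether the inhibitors differed from each other in their change with age was tested on the ratio of 2 genes' counts within a hen, which does not depend on how the library is scaled. All 6 pairs of the 4 tested members were run, and each member against OVAL, with exact two-sided permutation of the ages over 252 assignments and p adjusted over these 10 pairs. The pairs share genes, and the lower level of SPINK7 was known when they were chosen, so the tests with SPINK7 are no independent evidence of its direction. SPINK7 had 12.1, 11.4, 7.64, 7.57 and 8.12 counts per SPINK5 count at 35 weeks and 6.58, 4.83, 6.95, 3.46 and 6.44 at 50 weeks, in replicates 1 to 5. All 5 hens at 50 weeks lay below all 5 at 35 weeks.

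On the log2 scale the SPINK7 to SPINK5 ratio was 3.19 ± 0.33 (SD, n = 5) at 35 weeks and 2.45 ± 0.42 at 50 weeks, a difference of −0.74 (95% interval −1.29 to −0.22, exact permutation p = 0.00794, adjusted p = 0.0265). This is the smallest p that 5 against 5 hens can give. With any 1 library left out other than replicate 1 or 5 at 50 weeks, the adjusted exact permutation p was 0.0529 and the call was lost. This held for this ratio and for SPINK7 to OVST and to OVAL. Their raw p was 0.0159 each time, the smallest that 4 against 5 hens can give. The adjusted p was thus set by how many pairs reached it, and the lost call says nothing on stability. As a difference of medians it was −0.33 and did not pass (adjusted exact permutation p = 0.159). Without the 3 libraries that stood apart it was −0.34 (adjusted exact permutation p = 0.191), where 3 against 4 hens are too few for a call.

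SPINK7 was likewise lower against ovostatin. It had 36.7, 56.7, 44.8, 36.0 and 42.8 counts per OVST count at 35 weeks and 32.7, 29.0, 27.8, 22.5 and 32.2 at 50 weeks, again with no overlap. The nearest hens, at 36.0 and 32.7, were within counting error, which is about 18.5% for OVST at its mean count. The difference was −0.58 in log2 units (95% interval −0.98 to −0.25, exact permutation p = 0.00794, adjusted p = 0.0265). It was −0.43 without the 3 libraries and −0.56 as a difference of medians, and passed in neither. In both the exact permutation p was again the smallest that the setting can give. Against CST3 the ratio differed by −0.81 but the groups overlapped, with 4 of 5 hens at 50 weeks below the lowest at 35 weeks. That difference did not pass after adjustment (95% interval −1.62 to −0.03, exact permutation p = 0.0476, adjusted p = 0.0952), and without the 3 libraries it was −0.34 (adjusted exact permutation p = 0.571).

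SPINK7 was also lower relative to ovalbumin itself. There were 4.32, 3.39, 5.18, 5.14 and 4.92 OVAL counts per SPINK7 count at 35 weeks and 5.62, 6.85, 5.28, 6.07 and 6.21 at 50 weeks, so every hen at 50 weeks had more OVAL per SPINK7 than any hen at 35 weeks. The nearest hens, at 5.18 and 5.28, were within counting error, which is about 3.1% for SPINK7 at its mean count. In all 3 ratios the full separation behind the smallest p is thus not firm. The log2 ratio of SPINK7 to OVAL differed by −0.40 (95% interval −0.72 to −0.12, exact permutation p = 0.00794, adjusted p = 0.0265). It differed by −0.23 without the 3 libraries and by −0.30 as a difference of medians, and passed in neither. There too the exact permutation p was the smallest that each setting can give. OVAL averaged 27200 ± 3371 and 20990 ± 3509 CPM (SD, n = 5), or −0.37 in log2 units (SE 0.15, adjusted p = 0.382, edgeR).

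The other inhibitors gave ratios to OVAL on the opposite side of 0. SPINK5 to OVAL differed by 0.34 (95% interval 0.02 to 0.79, exact permutation p = 0.0317, adjusted p = 0.0794), CST3 to OVAL by 0.41 (−0.16 to 0.97, adjusted exact permutation p = 0.212) and OVST to OVAL by 0.18 (−0.15 to 0.54, adjusted exact permutation p = 0.317), and none of them passed. Without the 3 libraries the difference was 0.11 for SPINK5, 0.11 for CST3 and 0.20 for OVST, and as a difference of medians SPINK5 to OVAL was also 0.11. Among themselves SPINK5, CST3 and OVST did not differ detectably. The difference was −0.07 for SPINK5 to CST3 (95% interval −0.46 to 0.37), 0.16 for SPINK5 to OVST (−0.27 to 0.67) and 0.23 for CST3 to OVST (−0.40 to 0.88), with adjusted exact permutation p between 0.529 and 0.722. Without the 3 libraries these differences were −0.0022, −0.0925 and −0.0903. The intervals are wide enough to hold differences as large as that of SPINK7 to OVAL.

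**Figure D3:**
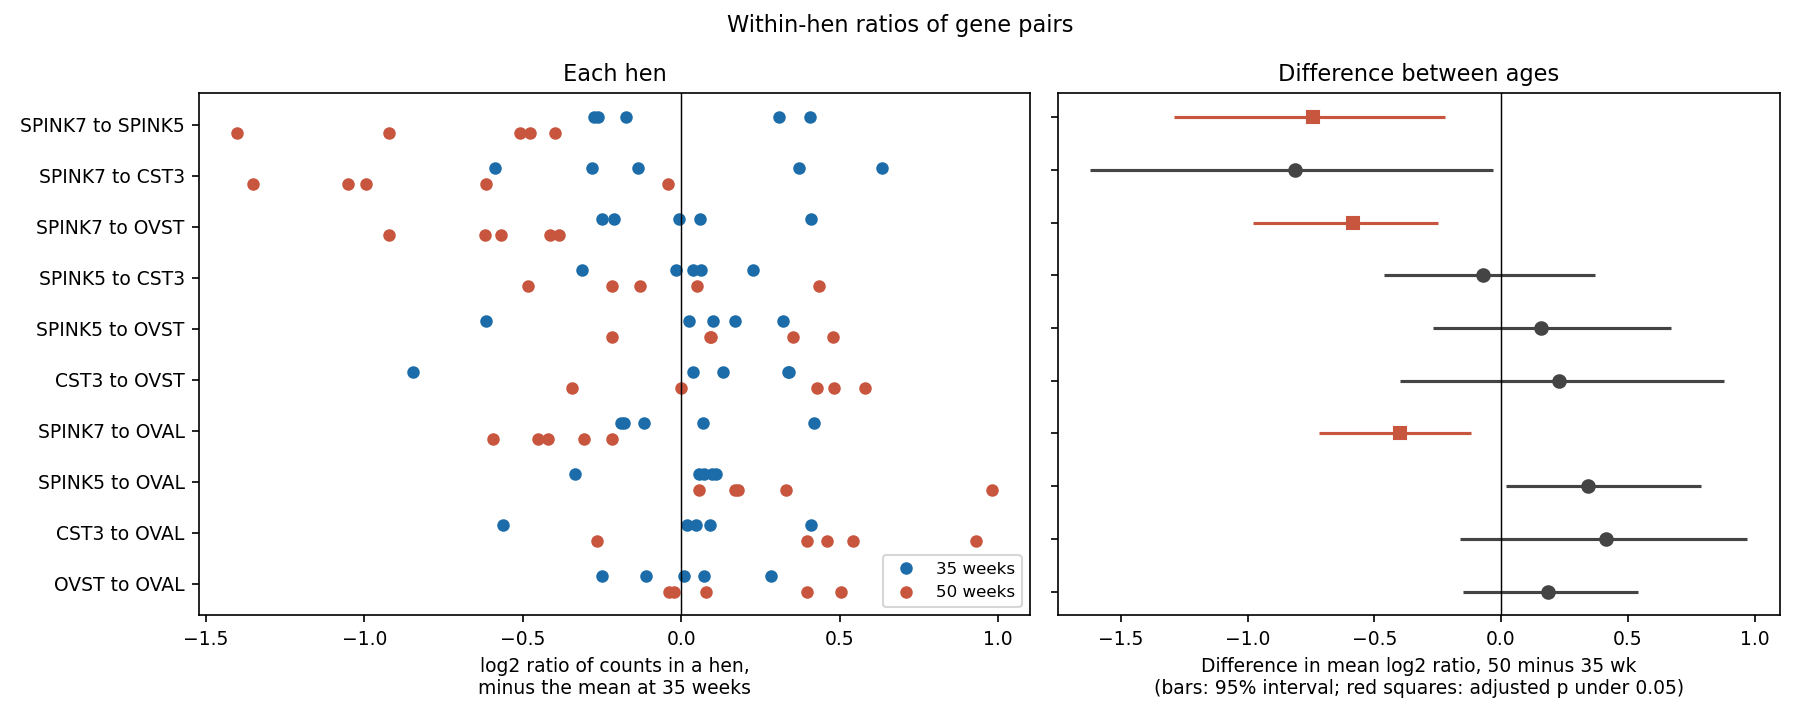
Left, log2 ratio of 2 genes' counts in each hen, less the mean at 35 weeks, with 35 weeks in blue and 50 weeks in red. Right, difference of the mean ratio between ages with its 95% interval. Red squares, adjusted p under 0.05 over 10 pairs, are SPINK7 to SPINK5 (−0.74), SPINK7 to OVST (−0.58) and SPINK7 to OVAL (−0.40).

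The 5 genes together held 0.915%, 0.919%, 0.693%, 0.668% and 0.66% of a library's counts at 35 weeks and 0.643%, 0.415%, 0.561%, 0.56% and 0.507% at 50 weeks. The hens did not overlap between ages in this share, which SPINK7 dominates. The nearest, replicate 5 at 35 weeks (1242 counts) and replicate 1 at 50 weeks (1319 counts), differed by less than counting error. Within the share, at 35 and 50 weeks, SPINK5 held 8.50% ± 1.39 (SD, n = 5) and 12.3% ± 2.69, CST3 12.3% ± 3.35 and 18.5% ± 4.29, and OVST 1.82% ± 0.313 and 2.33% ± 0.212. These are shares of counts and not of molecules, since longer transcripts give more fragments and transcript lengths were not used here. They are also parts of 1 total, so they rise when the SPINK7 share falls and do not show higher levels. At 35 and 50 weeks mean CPM was 651.0 and 651.9 for SPINK5, 929.5 and 958.4 for CST3, and 142.7 and 123.8 for OVST.

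The genes whose pattern over the 10 hens lay nearest to each inhibitor were found by the root mean square difference of log2 CPM, after each gene's own mean was subtracted. Hens share library and depth across genes, so this is a description. Nearest to SPINK7 of 1772 other tested genes were the ovotransferrin gene TF at 0.16 log2 units, ORM1 of the alpha-1-acid glycoprotein family at 0.19 and the lysozyme gene LYZ at 0.21, where the median gene was at 0.62. All 3 encode egg white proteins. TF had a log2 fold change of −0.83, ORM1 of −0.66 and LYZ of −0.73, and none passed in edgeR's test (adjusted p = 0.0984, 0.254 and 0.280). OVAL was 12th at 0.27.

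The other inhibitors lay farther off. OVST was 62nd from SPINK7 (0.36), SPINK5 377th (0.50) and CST3 822nd (0.60). Nearest to SPINK5 among genes with a symbol were CIB3 of a calcium-binding family (0.15), the histone variant gene H2AFX (0.16) and SLIRP (0.16), which binds mitochondrial RNA. Nearest to CST3 were the nucleolar GTPase gene GNL2 (0.15), the mitochondrial ribosome gene MRPL33 (0.15) and NDUFAF2 (0.16), an assembly factor of respiratory complex I. Nearest to OVST were AAMDC (0.19), HSPA5 (0.20), the main chaperone of the endoplasmic reticulum, and PP2D1 (0.20). Genes without a symbol were passed over, and 1 of them ranked among the first 3 for each of SPINK5, CST3 and OVST. All 12 named genes, those of SPINK7 included, have at least 1 other gene overlapping or within 1 kb whose RNA their counts could include. Each of these 3 inhibitors varied little, by 0.23, 0.23 and 0.29 log2 units around its mean against 0.49 for SPINK7, so genes of small variation lie near them.

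**Figure D4:**
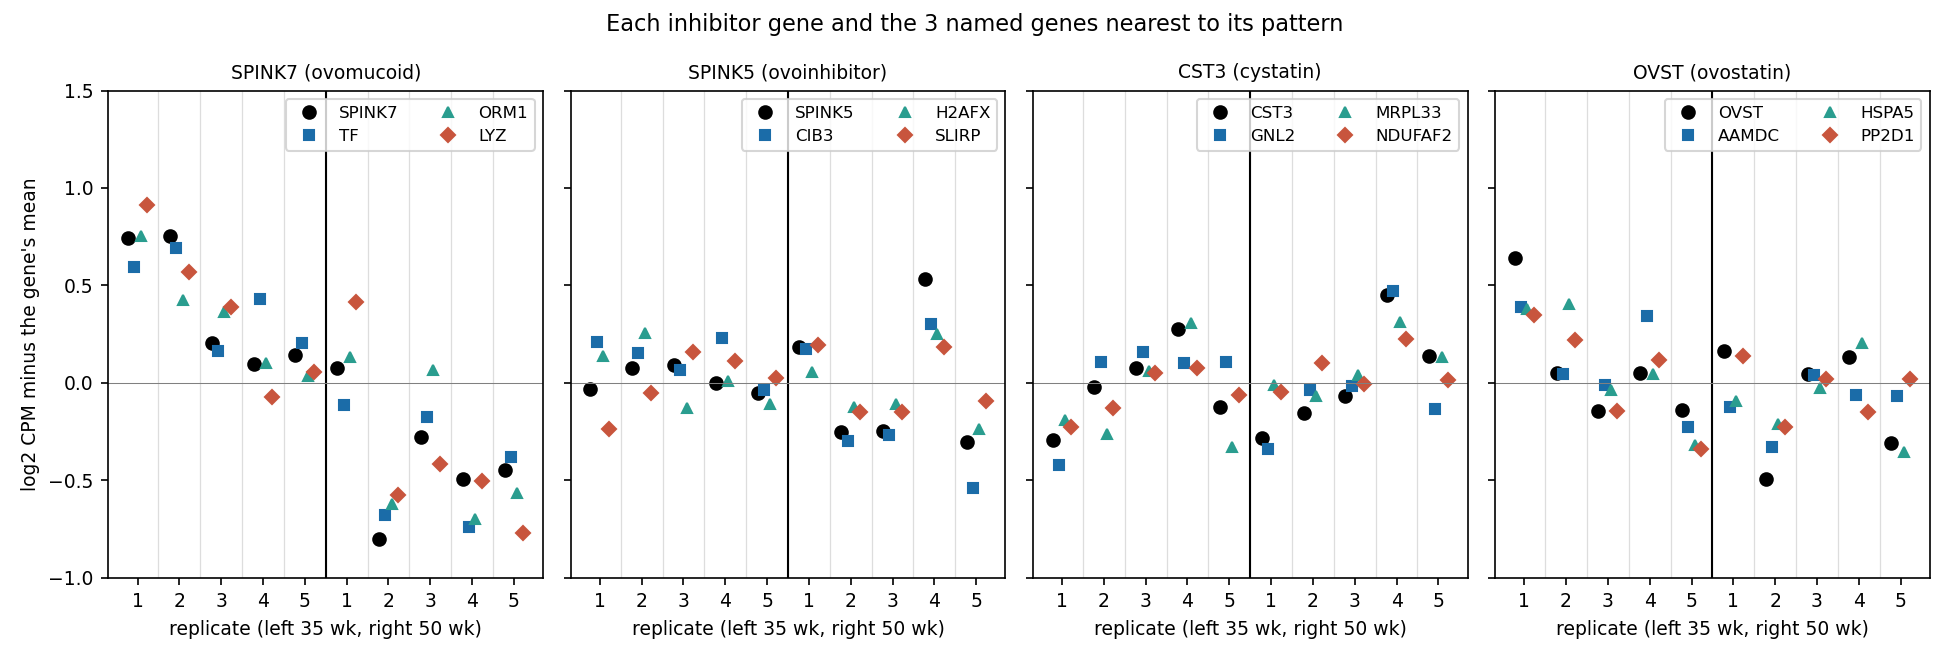
Log2 CPM of each tested inhibitor gene and its 3 nearest named genes in every hen, with each gene's mean over the 10 hens subtracted. Replicates at 35 weeks stand left of the black line and those at 50 weeks right of it. SPINK7, TF, ORM1 and LYZ are highest in replicates 1 and 2 at 35 weeks, and SPINK5 and CST3 are highest in replicate 4 at 50 weeks.

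Few other protease inhibitors were counted often enough to be tested, and none of them passed. Of 27 listed genes with Kazal domains 20 were in the table by symbol, 13 had a count and 3 were tested, SPINK7, SPINK5 and RECK. RECK, a membrane inhibitor of matrix metalloproteinases, averaged 118.0 ± 51.7 and 128.1 ± 38.4 CPM (SD, n = 5) at 35 and 50 weeks, a log2 fold change of 0.14. CST3 was the 1 tested of 7 cystatin and fetuin genes in the table, and the intracellular cystatins CSTB and CSTA had 0 to 6 and 0 to 2 counts per library. OVST was the 1 tested of 5 macroglobulin genes in the table.

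Of 5 listed clade B serpin genes in the table, none was tested. That list left out OVAL, of the same clade, and its relatives OVALY and OVALX, which were tested. Their log2 fold changes were −0.37, −0.75 and −0.51, and none passed in edgeR's test (adjusted p = 0.382, 0.0984 and 0.175). SERPINB5, known as maspin in mammals, had 0 to 28 counts per library and SERPINB11 had 1 to 8. Among 11 other serpins 2 were tested, SERPIND1, which inhibits thrombin, with a log2 fold change of −0.09 (SE 0.19) and SERPINE3 with −0.53 (SE 0.40). SERPING1, the inhibitor of complement C1, was the 1 gene of these lists in the authors' deposited table. That table gives it a log2 fold change of −1.22 at a mean normalised count of 4.66. Its p was 0.0512 and its adjusted p 0.628 in the authors' own test. All signs in that table run opposite to 50 over 35 weeks. SERPING1 averaged 13.1 ± 9.33 and 30.9 ± 8.09 CPM (SD, n = 5) and did not pass the filter on low counts. Of 20 Kunitz, WAP and other inhibitors 4 were tested, with ITIH2, a heavy chain of the inter-alpha-trypsin inhibitor complex, at 0.27 (SE 0.23) and TIMP3, an inhibitor of metalloproteinases, at 0.43 (SE 0.40).

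On the protease side, 5 of 42 serine protease genes in the table were tested, 3 with positive and 2 with negative fold changes and a median of 0.01. The complement protease gene CFD averaged 102.6 ± 16.4 and 139.1 ± 18.2 CPM (SD, n = 5), a log2 fold change of 0.43 (SE 0.20), and the prothrombin gene F2 averaged 156.2 ± 20.6 and 127.7 ± 32.6 CPM (−0.29, SE 0.22). Neither passed in edgeR's quasi-likelihood test (adjusted p = 0.475 and 0.696). None of the 15 cathepsins and related lysosomal proteases in the table, among them targets of cystatin, was tested. CTSD had 4 to 11 counts per library and CTSB, a cysteine protease, had 3 to 11.

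Markers of other cells were compared by their summed CPM, and their part in the results was not tested. The 19 ciliated cell markers in the table, all with counts but most of them from CCDC65, ran from 1126 to 1640 CPM at 35 weeks and from 817 to 1431 CPM at 50 weeks. The 9 smooth muscle markers ran from 115 to 328 and from 132 to 196 CPM, and the 10 fibroblast markers from 36.6 to 549 and from 39.4 to 902 CPM, highest in the 3 libraries that stood apart. Of 9 B and plasma cell markers 4 had counts (52.3 to 107.5 and 78.0 to 119.0 CPM), with PAX5, POU2AF1, TNFRSF13B, TNFRSF13C and EBF1 at 0. Of 9 shell gland markers 4 had counts (5.31 to 53.7 and 17.5 to 53.3 CPM), with SCNN1G and EDIL3 also at 0. Of 7 markers of isthmus and infundibulum 5 had counts (128 to 215 and 93.0 to 249 CPM), with ZPAX and GKN2 at 0. Most of that sum was LOXL2 (23 to 55 counts), while COL10A1, MATN3, FGF7 and BMP4 had at most 3 counts in any library.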

How the data were processed

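Total RNA of whole magnum was sequenced from directional libraries, per the labels. GRCg7b, DESeq2, Cufflinks, HISAT2 and Trimmomatic are named in the submitters' processing notes. Tool versions, counter, strand setting and annotation release are not given in sources used here. A deposited table holds unnormalized counts of 10 libraries by Ensembl gene. The authors' deposited table of their own comparison gives log2 fold changes, p-values, adjusted p-values, a test score and a mean normalised signal, per the file headers.

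Libraries were grouped by labelled age. Pairs of 1 age differed by more than sampling noise (chi-square at least 2.66 per degree of freedom), so each counts as 1 replicate. The test was edgeR 4.0.16 under R 4.3.3 (filterByExpr, minimum count 10, TMM, robust glmQLFit, glmQLFTest, two-sided), with age as the only term and Benjamini-Hochberg adjustment over 1773 genes. CPM uses library totals times TMM factors, marker sums use totals alone. Ratios used a pseudocount of 0.5, and their intervals invert the exact test in steps of 0.01. Nearest patterns used log2 CPM with a prior count of 2. Coordinates come from the RefSeq gene table of GRCg7b, in which 12778 genes were matched. The fit was run on simulated data with 200 changed genes, and the share of them it recovered is not given here. Alternatives used DESeq2 1.42.0 and limma 3.58.1; the rest ran in Python 3.11.15 with scipy 1.17.1, matplotlib 3.10.9, pandas 2.3.3 and numpy 2.4.6.

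Named genes are the 5 members, OVAL, the 3 nearest named patterns per tested member, the 2 smallest p per list, and close neighbours. COL6A2, CCDC65, LOXL2, GAPDH, RABEPK, OVALY, OVALX, SERPING1 and the other untested list genes were named after their values were seen. The members and lists were chosen with earlier results of these data known.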

Additional observations from a re-analysis of the deposited data

Results flagged for a closer look

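Of 30 groups of 5 hens checked for a value far from the rest (5 genes and 10 ratios at 2 ages), 3 held one. Chance gives about 1 in 20 for a single group, but these groups share genes and hens, so the 2 rates cannot be compared. All 3 values belong to replicate 1 at 35 weeks, 1 of the libraries that stood apart, and 2 of them use the same OVST count. Its OVST level of 208.1 CPM was far above the other 4 hens of its age. Its log2 ratio of CST3 to OVST, 1.86, and of SPINK5 to OVAL, −5.71, were far below theirs. The OVST value rests on 46 counts, with a 95% Poisson interval of 152 to 278 CPM.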

How the results depend on the processing

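The fold changes, in log2 units, and the counts of called genes were refitted under 19 settings. For SERPINB6 there were 14, each a log2 ratio of its mean CPM without a test. SPINK7 was negative in each and passed in 3 of them. It was at −0.75 with no filter on low counts, −0.75 with the looser filter (CPM from 1 upward, 5 libraries) and −0.78 in DESeq2. In the first 2 of these its SE was 0.15, against 0.19 in the comparison as reported. Limma-voom turned SPINK5 to −0.16 and CST3 to −0.0471, and removal of the 3 libraries that stood apart turned them to −0.15 and −0.16. Leaving out 1 library at a time, SPINK7 ran from −0.90 to −0.68, SPINK5 from −0.15 to 0.0854, CST3 from −0.0678 to 0.13, OVST from −0.26 to −0.02 and SERPINB6 from −0.60 to 0.34 (−1.03 without the 3 libraries). Genes called, 1 in the comparison as reported, were 36 and 40 with the looser filters, 17 in DESeq2, 12 in limma-voom, 42 without the 3 libraries and 1 to 12 with 1 library left out.

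The replicate numbers did not pair the hens (correlations of deviations from −0.115 to 0.0979). With the replicate number as a block, 2 genes were called, SPINK5 was at −0.0335, and no member passed.

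The ratios of SPINK7 to SPINK5, OVST and OVAL lost their adjusted call as differences of medians (−0.33, −0.56, −0.30). They also lost it without the 3 libraries (−0.34, −0.43, −0.23), where too few hens remain for a call. Their exact permutation p, 0.0476 and 0.0571, was the smallest that each setting can give, so these lost calls say nothing on stability. With 1 library left out these ratios ran from −0.83 to −0.58, −0.65 to −0.48 and −0.45 to −0.29. The adjusted exact permutation p was then 0.0397 or 0.0529, set by how many pairs reached the smallest raw p. That raw p, 0.0159, is fixed by the separation of the full groups, so neither p speaks to stability. SPINK7 to CST3 ran from −1.004 to −0.65 and SPINK5 to OVAL from 0.18 to 0.41, each past the threshold once. SPINK5 to CST3 ran from −0.20 to 0.0343. Without the 3 libraries SPINK5 to OVST (−0.0925) and CST3 to OVST (−0.0903) turned, as did SPINK5 to OVST as medians (−0.0053). The causes were not tested. At 20 to 46 counts, OVST cannot show small changes.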
